A study of Mus musculus with 12 samples.

Results

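*Cxcl12*, *Grem1*, *Enpp2* and *Dcn* encode secreted proteins that stromal cells and matrix-forming cells release into connective tissue, and they are 4 of the 22206 probe sets measured on the array. They were chosen by name from the authors' deposited table of probe sets that differed between the genotypes on these same arrays, so their genotype differences are given as descriptions, without a test. The chemokine gene *Cxcl12* was higher in cKO than in WT tissue, whereas *Grem1*, *Enpp2* and *Dcn* had lower means in cKO. Among the 6 cKO mice, *Cxcl12* and *Dcn* ranked the mice in the same order, although the genotype means of these genes lay in opposite directions.

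The arrays held RNA from nucleus pulposus (NP) tissue, the gel-like core of the intervertebral disc, of 6 K19Cre; Glut1f/f (cKO) mice and 6 Glut1f/f (WT) mice, with 1 Mouse Clariom S array per mouse. Both genotypes carried floxed *Glut1* (*Slc2a1*) alleles, received tamoxifen at 3 months of age (100 μg per g of body weight on each of 3 days) and were aged to 9 months. The Cre is a tamoxifen-dependent CreERT placed in the keratin 19 gene, so recombination is limited to cells that use that gene, and the WT littermates lacked it. Presence of the Cre allele and loss of GLUT1 can therefore not be told apart, and NP tissue was pooled over the discs of a mouse.

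Values are the deposited log2 values. The array medians lay between 6.56 and 6.62 in cKO and between 6.55 and 6.66 in WT, and the interquartile range was 4.43 to 4.69 in cKO and 4.04 to 4.68 in WT, with the lowest in WT mouse 3. The deleted gene *Slc2a1* was at 17.76 to 18.31 in cKO and at 18.86 to 19.31 in WT, without overlap, as the labels have it. The mean over probe sets coded to the Y chromosome in their identifiers parted the arrays into those of high signal (3 cKO and 4 WT) and of low signal (3 cKO and 2 WT). The split is used below as a sex-like split of the arrays, since the sex of each mouse is not given in the labels. Gene names were at hand for the 37 probe sets of the deposited table that have 1 symbol. The 13 lists of cell type markers and pathway partners hold 107 entries, with some genes on more than 1 list, and none was among them. NP, annulus, fibroblast, cartilage, vessel, marrow, blood and muscle markers were therefore not read, and their part in the results below was not tested.

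CXCL12 is a chemokine that binds the receptors CXCR4 and ACKR3, and perivascular and marrow stromal cells are known sources of it. Gremlin 1, the product of *Grem1*, is a secreted antagonist that binds bone morphogenetic proteins (BMPs) and keeps them from their receptors. *Enpp2* encodes autotaxin, a secreted lysophospholipase D that makes the lipid mediator lysophosphatidic acid. *Dcn* encodes decorin, a small leucine-rich proteoglycan that binds collagen fibrils and is abundant in fibrous tissue such as tendon and the annulus fibrosus around the NP. In whole tissue, fewer cells of a type and less RNA per cell cannot be told apart.

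The 4 genes lie on different chromosomes of GRCm38. *Cxcl12* spans positions 117168535 to 117181368 of chromosome 6, *Grem1* 113748675 to 113758648 of chromosome 2, *Enpp2* 54838901 to 54952789 of chromosome 15 and *Dcn* 97479500 to 97518163 of chromosome 10. The exons that the probes cover were not looked up, and RefSeq lists 3 transcripts for *Cxcl12*, 1 for *Grem1*, 13 for *Enpp2* and 2 for *Dcn*. The 250 bases upstream of the RefSeq start of *Cxcl12* (chr6:117168285-117168534, plus strand) and of *Grem1* (chr2:113758649-113758898, minus strand) are shown because, of the 4 genes, these had a promoter in the table used. Capitals mark the GC box GGGCGG on either strand.
Cxcl12: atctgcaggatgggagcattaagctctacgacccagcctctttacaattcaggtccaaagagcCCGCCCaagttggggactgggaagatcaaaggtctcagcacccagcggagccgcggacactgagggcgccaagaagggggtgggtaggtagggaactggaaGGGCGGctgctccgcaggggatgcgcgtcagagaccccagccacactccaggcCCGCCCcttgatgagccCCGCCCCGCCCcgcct
Grem1: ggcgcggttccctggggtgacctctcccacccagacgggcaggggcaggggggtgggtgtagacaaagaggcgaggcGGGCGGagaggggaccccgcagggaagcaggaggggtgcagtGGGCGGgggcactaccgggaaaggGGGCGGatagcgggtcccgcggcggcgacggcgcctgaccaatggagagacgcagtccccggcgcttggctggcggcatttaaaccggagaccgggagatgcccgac
The GC box occurs 5 times in the *Cxcl12* and 3 times in the *Grem1* stretch, with matches that overlap by a base counted separately, and at least once in 32.7% of the 32851 promoter stretches of this length. Each stretch holds 1 copy of the palindrome GGCGCC, to which SMAD proteins of the BMP pathway can bind and which 9.59% of all stretches contain. CCAAT, searched on both strands, is in the *Grem1* stretch once and not in that of *Cxcl12* (33.8% of all stretches). The hypoxia response core ACGTG (16.6% of all stretches) and TATAAA (12.4%) are in neither window, likewise on both strands. The stretch of *Grem1* is 72.0% G and C and that of *Cxcl12* 64.4%, values that 6.87% and 18.4% of all stretches reach or pass.

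*Cxcl12* was at 11.61, 11.05, 12.07, 11.34, 11.08 and 10.78 in cKO mice 1 to 6, against 8.22, 8.94, 10.17, 10.51, 7.87 and 9.97 in WT mice 1 to 6. Every cKO mouse lay above every WT mouse, with the lowest cKO mouse (10.78) just above the highest WT mouse (10.51). The mean was 11.32 ± 0.46 in cKO and 9.28 ± 1.10 in WT (SD, n = 6 each), a difference of 2.04 ± 0.49 (standard error from the SDs of both genotypes, as for the genes below) on the log2 scale, or 4.12-fold. The SD among mice pooled over the genotypes was 0.841. A difference above this SD, here and for *Dcn* below, is favoured by the choice of the genes and is a description. Over the whole array, 33 probe sets (0.149%) had every cKO value above every WT value and 28 (0.126%) had every cKO value below, and *Cxcl12* is 1 of the 33.

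*Grem1* was at 10.85, 11.30, 10.97, 11.71, 11.66 and 11.95 in cKO mice 1 to 6, against 12.33, 13.46, 11.80, 12.82, 12.67 and 11.34 in WT mice 1 to 6. The genotypes overlapped. WT mice 3 and 6 lay within the cKO range and the other 4 above it, while 3 cKO mice lay below all WT mice. The mean was 11.41 ± 0.44 in cKO and 12.40 ± 0.76 in WT (SD, n = 6 each), a difference of -0.997 ± 0.357 on the log2 scale, which puts the cKO level at 50.1% of the WT level.

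*Enpp2* was at 7.81, 7.94, 7.80, 7.93, 9.94 and 8.42 in cKO mice 1 to 6, against 9.78, 9.01, 8.64, 9.03, 10.51 and 9.88 in WT mice 1 to 6. Apart from cKO mouse 5, which lay within the upper part of the WT range, all cKO mice were below the lowest WT mouse. The mean was 8.31 ± 0.83 in cKO and 9.48 ± 0.70 in WT (SD, n = 6 each), and the difference was -1.17 ± 0.44 on the log2 scale (44.5% of the WT level). Without cKO mouse 5 it was -1.50.

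*Dcn* was at 8.63, 7.31, 8.84, 7.87, 7.60 and 6.08 in cKO mice 1 to 6, against 12.45, 9.57, 7.68, 10.19, 7.30 and 9.10 in WT mice 1 to 6. It was the most widely spread of the 4 genes, over 2.76 log2 units in cKO and 5.15 in WT, and WT mice 3 and 5 lay inside the cKO range. The mean was 7.72 ± 1.00 in cKO and 9.38 ± 1.87 in WT (SD, n = 6 each). The difference of -1.66 ± 0.86 on the log2 scale (31.6% of the WT level) was 1.11 times the pooled SD among mice, and WT mouse 1 carried much of it, since the difference was -1.05 without that mouse.

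**Figure D1:**
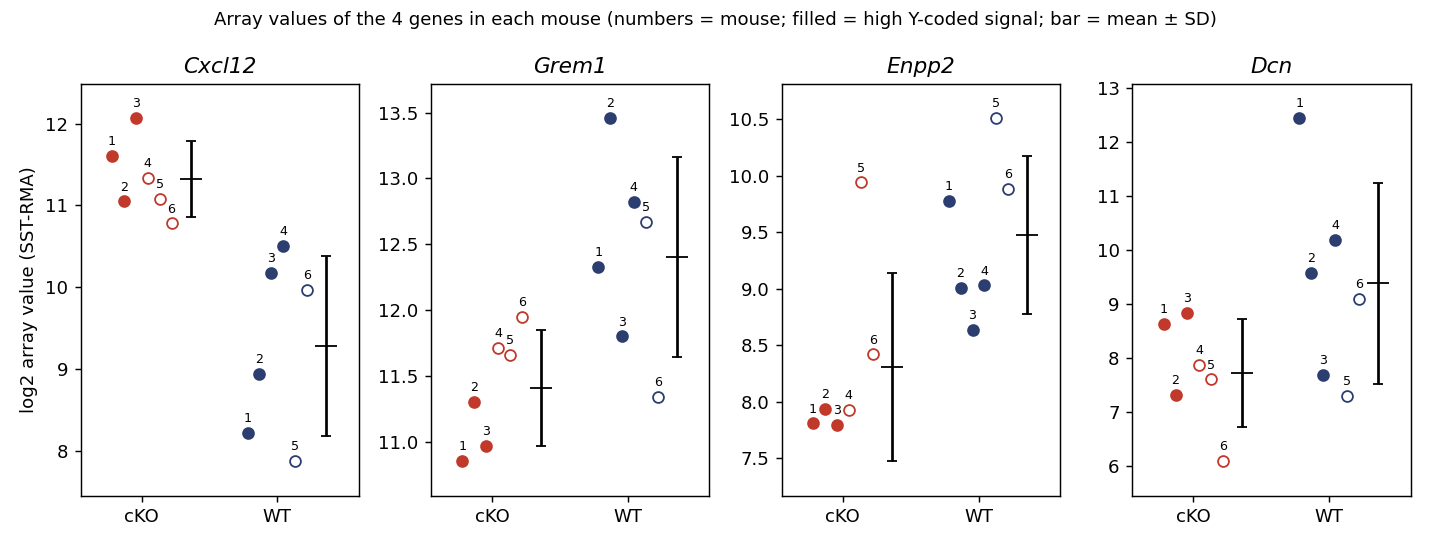
Deposited log2 array value (y axis) of each of the 4 genes in the 6 cKO and 6 WT mice (x axis, points numbered by mouse; filled points have high and open points low Y-coded signal), with the mean and SD of each genotype as a bar. The 6 *Cxcl12* values in cKO (10.78 to 12.07) lie above all WT values (7.87 to 10.51), while the genotypes overlap for *Grem1*, *Enpp2* and *Dcn*.

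Across all 22206 probe sets, the median absolute difference between the genotypes was 0.125 on the log2 scale. By limma, 1151 probe sets (5.18%) had an unadjusted p under 0.05, a limit that the choice of the 4 genes had already applied. With a limit of 2-fold on the means added, 13 (0.0585%) passed with a higher and 12 (0.054%) with a lower cKO mean. The sum of 25 was 45 without WT mouse 2, 39 without WT mouse 6 and 40 with mice of the same number as a block. *Cxcl12* is 1 of the 13, and *Enpp2* and *Dcn* are 2 of the 12, counts that the choice of the genes fixes. *Grem1*, at -0.997 by means, is the first probe set outside this 2-fold limit (-1.01 with Tukey biweight averages, which give outlying arrays less weight), and *St8sia1*, at 1.01, the first inside it. An adjusted p under 0.05 was reached by 1 probe set (0.0045%), *Slc2a1*.

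**Figure D2:**
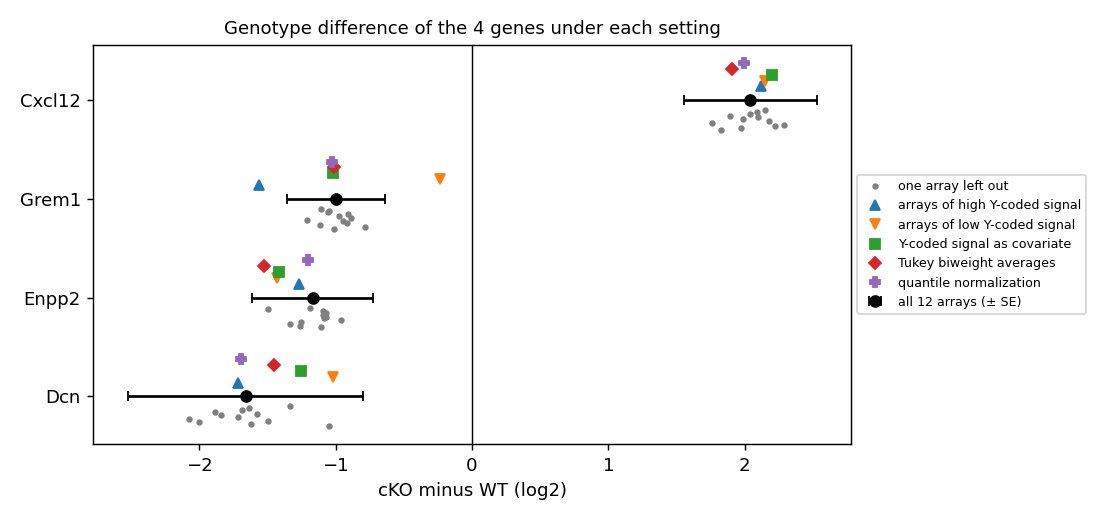
Difference of cKO minus WT on the log2 scale (x axis) for each gene (rows), with all 12 arrays (black, ± standard error from the SDs), with each array left out in turn (grey) and under 5 other settings (coloured). *Cxcl12* stays between 1.76 and 2.29, *Enpp2* between -1.52 and -0.96 and *Dcn* between -2.08 and -1.02, while *Grem1* runs from -1.56 among arrays of high to -0.23 among arrays of low Y-coded signal.

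The spread among mice of a genotype was large for all 4 genes. Their SD exceeded that of 90.9% to 99.0% of all probe sets in cKO and of 96.0% to 99.7% in WT. *Cxcl12*, *Grem1* and *Dcn* were less spread in cKO, with an SD that was 0.422, 0.580 and 0.535 times that in WT, and *Enpp2* had a ratio of 1.19. On the array as a whole, 68.8% of the probe sets had the larger SD in WT, so 3 of 4 genes is close to the general share.

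The *Cxcl12* difference was 2.12 among arrays of high Y-coded signal (11.05 to 12.07 in cKO and 8.22 to 10.51 in WT). Among arrays of low signal it was 2.15 (10.78 to 11.34 in cKO and 7.87 to 9.97 in WT). Neither class could show an overlap, since every cKO mouse lay above every WT mouse over all arrays. *Enpp2* differed by -1.27 and -1.43 and *Dcn* by -1.71 and -1.02 among arrays of high and low signal.

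Of the 4 genes, *Grem1* had the most unlike differences in the 2 classes, though not past the test. Among arrays of high signal, cKO mice lay at 10.85 to 11.30 and WT mice at 11.80 to 13.46, a difference of -1.56 without overlap. Among arrays of low signal, cKO mice lay at 11.66 to 11.95, between the WT values of 11.34 and 12.67, and the difference was -0.23. The difference between the classes was -1.33 ± 0.55 (limma's moderated standard error) for *Grem1*, with an adjusted p of 1 from limma's interaction term over all probe sets, and the term had an adjusted p of 1 for the other 3 genes too. No probe set passed an adjusted p of 0.05 for this term. An unadjusted p under 0.05 was found for 562 of the 22206 probe sets, a smaller share than the 0.05 that this limit alone would let through. The low class held only 3 cKO and 2 WT arrays.

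Whether the 4 genes vary together was examined among mice of the same genotype, where the genotype difference does not enter. There were 12 relations, 6 pairs of genes in each genotype, and p-values come from exact two-sided permutation tests over the 720 pairings of 6 mice, for which 0.00278 is the smallest possible p. Among cKO mice, *Cxcl12* and *Dcn* rose and fell together (r = 0.924, exact permutation p = 0.00278, adjusted p = 0.0333). The order of the 6 mice was identical for both genes, from cKO mouse 3 at the top through mice 1, 4, 5 and 2 to mouse 6 (Spearman's rho = 1, exact permutation p = 0.00278, adjusted p = 0.0333). Without mice 3 and 6, the farthest from the *Cxcl12* median, r was 0.974 over 4 mice, and leaving out any single cKO mouse gave 0.923 to 0.960.

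The adjusted threshold was missed after quantile normalization (r = 0.904, exact permutation adjusted p = 0.0667) and with the Y-coded signal regressed out (r = 0.864, permutation adjusted p = 0.433). Each class of Y-coded signal held 3 cKO mice, too few for a correlation within a class. The interquartile range of the cKO arrays had r of 0.532 with *Cxcl12* and 0.668 with *Dcn* (rho = 0.771 for both, exact permutation p = 0.294 and 0.108 for r and 0.103 for rho, adjusted p at least 0.257 over 10 relations, and r = 0.742 and 0.755 without cKO mice 1 and 4), and its part in their relation was not tested. For comparison, 87 of the 22205 other probe sets (0.392%), *Dcn* among them, had r of at least 0.924 with *Cxcl12* among cKO mice. For *Dcn* there were 112 (0.504%), *Cxcl12* among them. Negative r of this size was not counted. In WT mice, r between *Cxcl12* and *Dcn* was -0.107 (rho = 0.2, exact permutation p = 0.819 for r and 0.714 for rho, adjusted p = 0.894 and 0.779). That value rests on single mice, since it was 0.526 without WT mouse 1, which had the highest *Dcn* value, and -0.694 without WT mouse 5, and -0.078 without both. The difference between the genotypes in this correlation was not tested.

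*Grem1* ran the other way among cKO mice. Its r was -0.835 with *Dcn* (rho = -0.714, exact permutation p = 0.0361 and 0.136, adjusted p = 0.217 and 0.327) and -0.796 with *Cxcl12* (rho = -0.714, exact permutation p = 0.0722 and 0.136, adjusted p = 0.289 and 0.327). Neither passed after adjustment, and without the 2 cKO mice farthest from the median r was -0.519 and -0.618. The 3 cKO mice of high Y-coded signal had the lowest *Grem1* values. With that signal regressed out, r was little changed with *Dcn*, at -0.850, and weaker with *Cxcl12*, at -0.546 (permutation adjusted p = 0.433 and 0.572). In WT mice r was 0.153 with *Dcn* and -0.341 with *Cxcl12* (rho = 0.257 and -0.086, exact permutation p = 0.783 and 0.511 for r and 0.658 and 0.919 for rho, adjusted p at least 0.767), and 0.179 and -0.512 without the 2 farthest WT mice.

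*Enpp2* had no relation past the threshold with any of the other 3 genes. Among cKO mice its r was -0.461 with *Cxcl12*, 0.492 with *Grem1* and -0.315 with *Dcn* (exact permutation p = 0.281, 0.292 and 0.403, adjusted p at least 0.583), with rho of -0.829, 0.657 and -0.829 (exact permutation p = 0.0583, 0.175 and 0.0583, adjusted p at least 0.233). These values turned on cKO mouse 5, the mouse of high *Enpp2*. Without it r was -0.810, 0.838 and -0.943. Without the 2 mice farthest from the median of the first gene, r in cKO was -0.529, 0.198 and -0.959. Among WT mice *Enpp2* had r of -0.688 with *Cxcl12*, -0.132 with *Grem1* and -0.055 with *Dcn* (rho = -0.6, -0.2 and -0.2, exact permutation p = 0.133, 0.786 and 0.953 for r and 0.242, 0.714 and 0.714 for rho, adjusted p at least 0.4). The first of these was -0.024 over 4 mice without WT mice 5 and 1, and -0.851 to -0.432 on leaving out a single WT mouse. The others were 0.509 and 0.270 without the 2 farthest WT mice. Of all 12 relations, 2 of 6 were positive in cKO (*Cxcl12* with *Dcn* and *Grem1* with *Enpp2*) and 1 of 6 in WT (*Grem1* with *Dcn*).

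**Figure D3:**
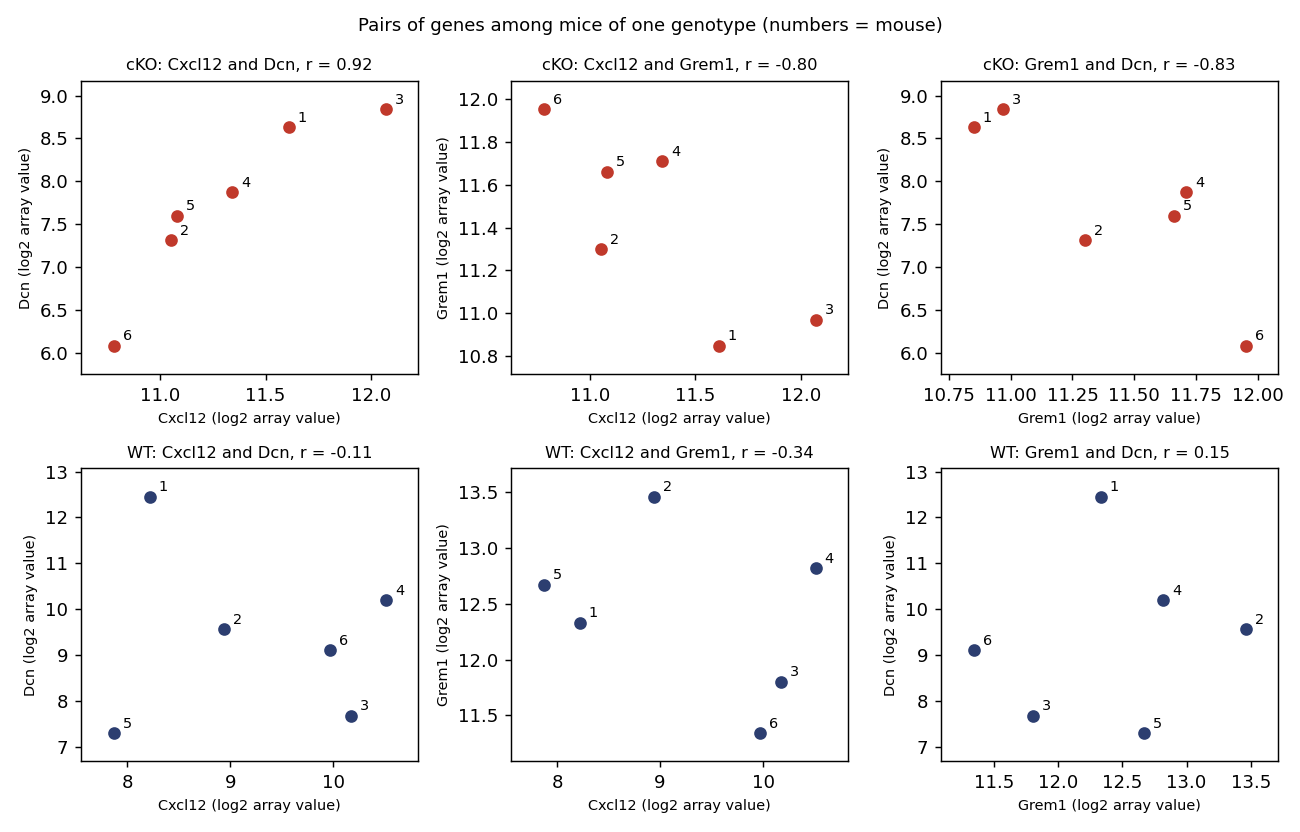
Log2 array values of pairs of genes plotted against each other for the 6 cKO mice (top row) and the 6 WT mice (bottom row), with points numbered by mouse and Pearson's r above each panel. *Cxcl12* and *Dcn* rise together in cKO (r = 0.924), against r = -0.107 in WT, and *Grem1* has r of -0.796 with *Cxcl12* and -0.835 with *Dcn* in cKO.

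The deviations of each mouse from its genotype mean give these relations mouse by mouse. In cKO, mice 1 and 3 were above the mean in *Cxcl12* (by 0.29 and 0.75) and *Dcn* (by 0.91 and 1.12) and had deviations of -0.56 and -0.44 in *Grem1* and -0.50 and -0.51 in *Enpp2*. Mouse 6 had the opposite pattern, with deviations of -0.54 in *Cxcl12*, 0.54 in *Grem1*, 0.11 in *Enpp2* and -1.64 in *Dcn*. Mouse 2 was below the cKO mean in all 4 genes, with deviations of -0.27 in *Cxcl12*, -0.11 in *Grem1*, -0.37 in *Enpp2* and -0.41 in *Dcn*, and no other mouse of either genotype lay on the same side of its mean in all 4. WT mouse 1, 3.07 above the mean in *Dcn*, had deviations of -1.06 in *Cxcl12*, -0.07 in *Grem1* and 0.30 in *Enpp2*. WT mouse 5 had the highest *Enpp2* value of its genotype (deviation 1.03) and the lowest *Dcn* and *Cxcl12* values (deviations -2.08 and -1.41).

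**Figure D4:**
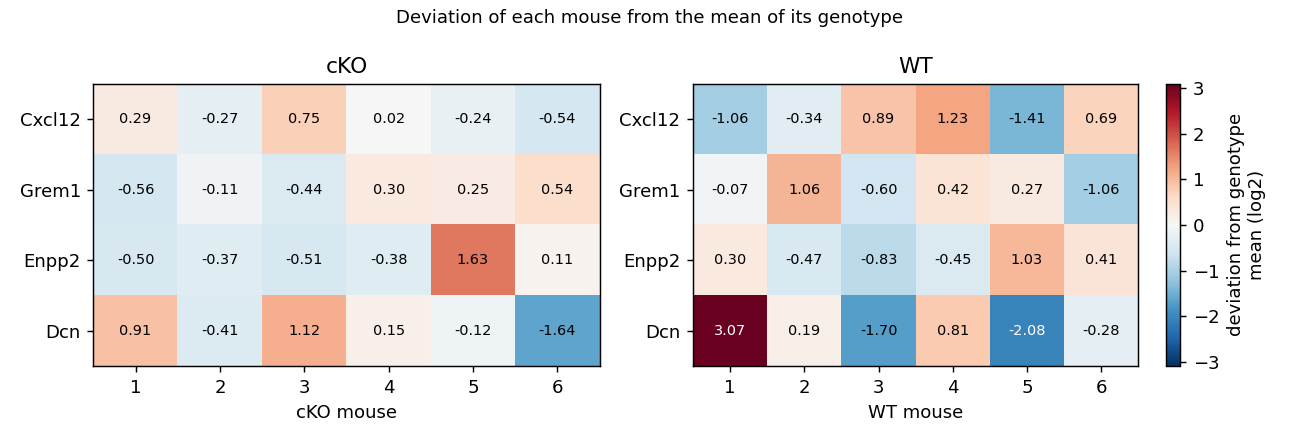
Deviation of each mouse (columns) from the mean of its genotype on the log2 scale for the 4 genes (rows), cKO at left and WT at right, red above and blue below the mean. The *Cxcl12* and *Dcn* rows share their order across cKO mice, and the largest single deviation is 3.07 for *Dcn* in WT mouse 1.

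The arrays also had a main axis of variation, the first principal component of the genotype-centred values of 21012 probe sets without an X or Y code and without the 4 genes, which held 27.6% of their variance. Scores ran from -18.75 (mouse 6) to 17.29 (mouse 1) in cKO and from -48.21 (mouse 3) to 47.06 (mouse 2) in WT. The axis therefore describes mainly the spread among WT mice, with mice 2 and 3 at its ends, and less that among cKO mice. In WT the scores moved with the interquartile range of the arrays, with r = 0.945 (rho = 1, exact permutation p = 0.00278 for both, adjusted p = 0.0278 for both over 10 relations). In cKO r was 0.896 and missed the adjusted threshold (rho = 0.943, exact permutation p = 0.0139 and 0.0167, adjusted p = 0.0694 and 0.0833). Without the 2 arrays of farthest interquartile range these r were 0.610 in cKO and 0.951 in WT. In cKO, r with this axis was 0.830 for *Dcn*, 0.614 for *Cxcl12*, -0.668 for *Grem1* and -0.292 for *Enpp2* (rho = 0.829, 0.829, -0.6 and -0.657, exact permutation p = 0.05, 0.189, 0.144 and 0.419 for r and 0.0583, 0.0583, 0.242 and 0.175 for rho). In WT it was 0.544, -0.656, 0.663 and 0.248 in the same order of genes (rho = 0.429, -0.6, 0.714 and 0.143, exact permutation p = 0.272, 0.172, 0.156 and 0.628 for r and 0.419, 0.242, 0.136 and 0.803 for rho). None of these 8 relations passed after adjustment (adjusted p at least 0.302 for r and 0.233 for rho). Without cKO mice 6 and 1, the farthest along the axis, r in cKO was 0.317 for *Dcn*, 0.261 for *Cxcl12*, 0.413 for *Grem1* and -0.263 for *Enpp2*. Without WT mice 2 and 3, r in WT was 0.588, -0.757, 0.192 and 0.278. Single mice weighed on these values, since without cKO mouse 3 r in cKO was 0.986 for *Dcn* and 0.992 for *Cxcl12*, and without cKO mouse 5 it was -0.835 for *Enpp2*. For *Dcn* r was above 0 in both genotypes, while for *Cxcl12*, *Grem1* and *Enpp2* it had opposite signs in cKO and WT, a difference that was not tested.

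The named probe sets whose genotype-centred values were most like each gene over the 12 arrays were taken from the deposited table. For *Cxcl12* these were *Eno2* (neuronal enolase, a glycolytic enzyme, r = 0.693), *Slc2a1* (0.431) and LOC100504460 (0.395). *Grem1* was closest to *Scin* (scinderin, an actin-severing protein, 0.621), *Tyro3* (a receptor tyrosine kinase, 0.530) and *Dnajb13* (0.492), and *Enpp2* to *Fbxw18* (an F-box protein, 0.761), *Tyro3* (0.629) and *Scin* (0.492). *Dcn* was closest to *Dbp* (a transcription factor of the circadian clock output, 0.688), LOC100504460 (0.680) and *Gstp2* (a glutathione S-transferase, 0.669). These are descriptions, since the probe sets share arrays and few have names. They were picked as the closest of the named probe sets, so the small shares below follow in part from that choice. Of all 22205 other probe sets, 292 (1.32%) were at least as close to *Cxcl12* as *Eno2* and 464 (2.09%) to *Grem1* as *Scin*. For *Enpp2* and *Fbxw18* there were 112 (0.504%), and for *Dcn* and *Dbp* 262 (1.18%). The share was 12.7% for *Slc2a1* and 15.4% for LOC100504460 with *Cxcl12*, so neither stood out from the array. It was 5.29% for *Tyro3* and 7.08% for *Dnajb13* with *Grem1*. With *Enpp2* it was 2.86% for *Tyro3* and 7.81% for *Scin*, and with *Dcn* 1.33% for LOC100504460 and 1.55% for *Gstp2*.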

How the data were processed

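RNA from the NP of each of 6 cKO and 6 WT mice was measured on its own Mouse Clariom S array. The log2 values, 1 per probe set and array, were deposited by the authors after joint SST-RMA normalization. The authors also deposited averages, fold changes and p-values of their own comparison, which were not used. Only the gene symbols beside them were read, which pair 39 probe sets with names, 37 of them with 1 symbol. The annotation was built on mm10, and the submitters' processing notes name Affymetrix Expression Console.

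All 22206 probe sets were tested in limma 3.58.1 (R 4.3.3; lmFit, then eBayes) without covariates, with Benjamini-Hochberg adjustment. The fit was tested on simulated data. Correlations used numpy 2.4.6 and exact permutation. Tukey biweight averages used the constants 5 and 0.0001. Dim probe sets were those not above the 30th percentile on at least 6 arrays. Locations and promoter sequences came from RefSeq tables of GRCm38, in which 4 of 4 genes had a location and 2 a promoter. The number of arrays limits the precision, and p-values measure the spread between mice.

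The genes named were the 4 members, *Slc2a1*, the probe sets on either side of the 2-fold limit and, for each member, the 3 named probe sets of highest genotype-centred r. The members and lists were chosen with earlier results of these data known. The 13 lists (nucleus pulposus, annulus and fibroblast, cartilage, endothelium, mural cells, marrow stroma, bone, blood, skeletal muscle, CXCL12 axis, BMP signalling, lysophosphatidic acid axis and small leucine-rich proteoglycans) could not be read for lack of names. The interaction with the Y-coded split and 10 relations with the interquartile range of the arrays (the main axis and the 4 genes in each genotype) were added after the data were seen.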

Additional observations from a re-analysis of the deposited data

Results flagged for a closer look

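Of 28 sets of 6 values (each named gene in each genotype), 2 had 1 mouse set apart from the rest, and about 1.4 such sets are expected by chance. cKO mouse 5 had an *Enpp2* value of 9.94, and the remaining cKO mice lay at 7.80 to 8.42, so that the gap took up 0.710 of the range. WT mouse 3 had a value of 5.90 for *Tyro3*, among the probe sets closest to *Enpp2* and *Grem1*, and the remaining WT mice lay at 7.49 to 8.01, with a gap of 0.754 of the range.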

How the results depend on the processing

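The differences of the 4 genes kept their sign in 84 of 84 values, and 83 moved by less than the pooled SD among mice. The exception was *Grem1* among arrays of low Y-coded signal (-0.23), where fewer arrays were fitted. Most of this count was fixed beforehand. Leaving out an array could not move these differences by the pooled SD or change their sign. Removing dim probe sets and the replicate block return the same differences, and the genes were chosen for these differences. Leaving out an array gave 1.76 to 2.29 for *Cxcl12*, -1.21 to -0.79 for *Grem1*, -1.50 to -0.96 for *Enpp2* and -2.08 to -1.05 for *Dcn*. The 25 probe sets that passed both an unadjusted p of 0.05 and 2-fold became 21 to 45 on leaving out an array (45 without WT mouse 2 and 39 without WT mouse 6), and the count of 1 past an adjusted p was 1 to 2 (2 without WT mouse 4) and 2 with the Y-coded signal as covariate. The replicate block gave 40 in place of 25 and the same differences. The deviations of same-numbered mice correlated above 0.1 in 5 of 6 pairs (0.138 to 0.388) and at -0.263 in pair 4, and 2 of 12 arrays matched their own number best. Same-numbered mice fell in the same class of Y-coded signal except in pair 4, where the WT array was high and the cKO array low. Since not every pair passed 0.1 and the labels tie the numbers to nothing, the mice were not treated as paired. The causes were not tested.

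Of the 12 pairs, 1 passed an adjusted p of 0.05 by r and by rho, and 0 did after quantile normalization or with the Y-coded signal regressed out. With that signal regressed out, r changed sign in cKO for *Grem1* with *Enpp2* (-0.273) and *Enpp2* with *Dcn* (0.131), and in WT for *Grem1* with *Enpp2* (0.270), *Grem1* with *Dcn* (-0.075) and *Enpp2* with *Dcn* (0.672). By rho, *Cxcl12* with *Dcn* in WT was 0.2. On leaving out a WT mouse, r ran from -0.694 to 0.526 for *Cxcl12* with *Dcn*, -0.484 to 0.132 for *Grem1* with *Enpp2*, -0.026 to 0.324 for *Grem1* with *Dcn* and -0.437 to 0.593 for *Enpp2* with *Dcn*. It ran from -0.252 to 0.655 for *Enpp2* with the main axis of variation. With 6 mice a genotype, weak correlations could not be told from 0. Signal over background is unknown.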
